A study of Mus musculus with 24 samples.

Results

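The replication-dependent histone genes were taken as the protein-coding genes of the GENCODE vM21 annotation whose symbols start with Hist1h, Hist2h, Hist3h or Hist4. The rule found 67 genes among 21755 protein-coding genes on chromosomes 1 to 19 and X. These genes supply the bulk of the core histones and linker histones that package newly made DNA. They are transcribed mainly in S phase, most lack introns, and their mRNAs end in a stem-loop instead of a poly(A) tail. They lie in clusters in which H2A and H2B genes often stand head to head and share a promoter, and transcription and mRNA processing factors gather at the clusters in a nuclear structure called the histone locus body.

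H3K9ac, an acetylation of histone H3 found at active promoters, was profiled by ChIPmentation, in which Tn5 transposase tags immunoprecipitated chromatin, in 3D spheroids of 4T1, a mouse mammary carcinoma cell line. Peak lists of 12 libraries were used, 3 in each of 4 groups, and 12 input libraries were not analysed here. The groups were scramble control cells, CPT1a knockout cells and KAT2a knockout cells, each in medium with 75 µM palmitate, and CPT1a knockout cells in medium with 5 mM acetate, all collected on day 5. CPT1a carries long-chain fatty acids into mitochondria for oxidation, and KAT2a is an acetyltransferase that acts on histone H3. Whether the acetate medium also held palmitate is not in the labels. A figure legend of the study describes CPT1a-inhibited spheroids grown with palmitate, both with and without acetate. Per the study's methods, the cells carried an inducible Cas9 and a lentiviral guide, with a guide against EGFP as the control, and were selected as stable lines; the labels do not tell which guide or line each library came from, nor whether replicates were separate cultures, so the p-values may measure technical spread. The Cpt1a and Kat2a promoters held a peak in 12 of 12 libraries, with percentile ranks from 13.7 to 73.8 and from 6.04 to 60.9. Since a guide cuts in an exon, promoter acetylation does not check the knockout labels. All 5 epithelial marker genes examined held a promoter peak in every library, and none of 5 immune and endothelial marker genes held one in any.

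The 67 genes fell into 7 blocks of GRCm38. The Hist1 genes occupied 4 blocks of chromosome 13, with 18 genes at chr13:21715763-21837530, 5 genes at chr13:22035164-22043676, 29 genes at chr13:23531050-23764406 and a testis-expressed pair at chr13:23933773-23934851. The 10 Hist2 genes lay at chr3:96219865-96270132, the 2 Hist3 genes at chr11:58948920-58956830, and Hist4h4 alone on chromosome 6. By product they were 6 linker histone H1 genes, 18 H2A, 18 H2B, 12 H3 and 13 H4 genes. Their median length was 539 bp, against 17414 bp over all protein-coding genes, and 62 of the 67 had a single exon in every annotated transcript.

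RefSeq promoter sequences of build GRCm38.p6, running from 250 bases before to 50 bases after the gene start, were matched for 62 of the 67 genes. Hist1h2bc, Hist1h3a, Hist1h3f, Hist2h2be and Hist2h4 were not matched. The following 6 promoters, written 5′ to 3′ on the strand of the gene, are shown because their genes mark the ends of the range described below or head a shared peak. Capitals mark 3 words on either strand and at any distance from the start: TATAAA, a form of the TATA box, CCAAT, the CCAAT box, and ATTTGCAT, the octamer that POU2F1 binds, known from H2B promoters.
Hist2h2ac, at the strongest shared peak (chr3:96220831-96221130, minus strand): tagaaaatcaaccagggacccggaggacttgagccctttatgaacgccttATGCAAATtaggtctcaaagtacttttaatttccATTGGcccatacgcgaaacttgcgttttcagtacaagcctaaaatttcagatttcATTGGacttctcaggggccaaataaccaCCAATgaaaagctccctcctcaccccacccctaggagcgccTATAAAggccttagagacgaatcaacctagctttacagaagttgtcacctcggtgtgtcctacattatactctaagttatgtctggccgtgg
Hist3h2a, the largest fall in rank in CPT1a knockout (chr11:58954435-58954734, plus strand): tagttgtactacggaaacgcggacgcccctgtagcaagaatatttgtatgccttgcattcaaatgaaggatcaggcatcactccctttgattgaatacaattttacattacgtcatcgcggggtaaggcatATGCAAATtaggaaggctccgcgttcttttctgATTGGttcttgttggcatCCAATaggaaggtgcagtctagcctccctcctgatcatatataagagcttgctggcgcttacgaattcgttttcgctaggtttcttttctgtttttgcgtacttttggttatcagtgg
Hist1h2bg, in a peak that can hold 5 histone genes (chr13:23571150-23571449, plus strand): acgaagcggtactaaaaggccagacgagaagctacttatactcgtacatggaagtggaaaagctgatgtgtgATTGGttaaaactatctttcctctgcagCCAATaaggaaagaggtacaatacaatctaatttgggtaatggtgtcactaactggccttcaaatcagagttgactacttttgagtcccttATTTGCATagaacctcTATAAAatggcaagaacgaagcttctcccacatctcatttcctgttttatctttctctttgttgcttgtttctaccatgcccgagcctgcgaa
Hist1h4f, an H4 gene of low rank (chr13:23551619-23551918, minus strand): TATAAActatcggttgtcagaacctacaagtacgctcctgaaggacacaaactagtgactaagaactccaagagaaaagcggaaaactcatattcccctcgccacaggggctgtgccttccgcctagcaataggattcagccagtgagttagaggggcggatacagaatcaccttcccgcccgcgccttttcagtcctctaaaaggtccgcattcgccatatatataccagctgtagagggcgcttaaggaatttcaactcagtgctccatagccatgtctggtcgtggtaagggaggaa
Hist1h2ba, a testis gene of very low rank (chr13:23934107-23934406, minus strand): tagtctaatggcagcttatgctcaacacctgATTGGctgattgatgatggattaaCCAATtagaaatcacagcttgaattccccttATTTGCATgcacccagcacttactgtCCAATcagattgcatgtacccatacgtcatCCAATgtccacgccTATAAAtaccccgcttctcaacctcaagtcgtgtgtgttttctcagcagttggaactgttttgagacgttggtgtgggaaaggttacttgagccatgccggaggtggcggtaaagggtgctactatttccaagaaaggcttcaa
Hist1h1a, a linker histone gene seldom called (chr13:23763418-23763717, plus strand): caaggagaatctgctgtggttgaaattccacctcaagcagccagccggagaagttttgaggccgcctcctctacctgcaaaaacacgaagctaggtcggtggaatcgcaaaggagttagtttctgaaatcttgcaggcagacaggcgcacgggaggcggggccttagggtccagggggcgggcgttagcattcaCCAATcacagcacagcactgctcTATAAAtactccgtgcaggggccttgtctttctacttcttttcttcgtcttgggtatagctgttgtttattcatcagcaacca
The word CCAAT stood in 53 of the 62 histone promoters (85.5%), against 37.4% of all 32851 promoters of the table. It was found in all 18 H2A, 16 H2B, 10 H3 and 6 H1 promoters matched but in 3 of 12 H4 promoters, of which Hist1h4f above is one without it. TATAAA stood in 35 (56.5%, against 13.6%), at any distance and on either strand, so that not each match is at the place of a TATA box. In Hist1h1a it began 33 bases before the start, and in Hist1h4f 250 bases before it. The octamer word stood in 13 (21.0%, against 1.74%), 7 of them H2A and 6 H2B promoters. Windows of head-to-head pairs overlap, so that one motif can count for both genes, as does the octamer between Hist1h2bg and Hist1h2ae. The testis gene Hist1h2ba carried all 3 words, as did Hist1h2bg and Hist2h2ac, whose peaks were far stronger.

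Nearly all histone promoters were called in every library. A promoter was called where a peak overlapped the 1 kb on either side of an annotated start. By this measure 63 of the 67 histone genes had a peak in all 12 libraries, against a background of 49.5% (10777) of protein-coding genes, and single libraries held peaks at 63 to 66 of them. All 18 H2A, 12 H3 and 13 H4 genes and 17 of 18 H2B genes were called throughout, but only 3 of the 6 H1 genes. The 10 Hist2 genes were called in every library.

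The 4 genes without a peak in all 12 libraries behaved differently. Hist1h1a, a linker histone gene, was called in 2 libraries, scramble replicate 1 (peak width 1284 bp) and KAT2a knockout replicate 2 (1225 bp). In both, this was the peak of its neighbour Hist1h3a. Hist1h1t, the testis linker histone, was called in scramble replicates 1 (1617 bp) and 3 (228 bp). In scramble replicate 1 that peak was also the one at Hist1h4c, next to it. Hist1h1d was missed in CPT1a knockout replicate 3 and acetate replicate 2, but its annotated start lies 1770 bp from its RefSeq start. Within 1 kb of the RefSeq start a peak stood in 12 of 12 libraries, at percentile ranks from 26.2 to 67.1 (median 41.1), so the missing calls went with the annotated start used.

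Hist3h2ba, an H2B gene, showed a reverse pattern. It had no peak in any of the 3 scramble libraries, a peak in CPT1a knockout replicates 1 (389 bp) and 2 (390 bp), and one in all 3 acetate libraries (207, 209 and 267 bp) and all 3 KAT2a knockout libraries (225, 367 and 366 bp). The scramble lists were the longest, with 29176 to 34370 peaks against 16212 to 24639 in the other groups, and the part of list length in these calls was not tested. These small peaks had fold enrichments of 4.56 to 12.5, and no test was made on calls. With 3 libraries against 3 an exact permutation test cannot give a two-sided p under 0.1.

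The strength of a promoter was taken from its strongest peak and written as a percentile rank of its fold enrichment within the library, from 0 to 100, among the 10777 genes called in all 12 libraries, since the lists are not scaled to each other. Over all libraries the mean ranks of the 63 histone genes ran from 5.42 to 96.0, and 44 of them lay above 50. The 5 highest means were those of Hist2 genes. Hist2h3c2, an H3 gene, had the highest mean rank, 96.0, and lay between 87.9 and 99.1 in the 12 libraries. Hist2h2ab, Hist2h2ac and Hist2h2be shared one peak in every library and so one rank, with a mean of 94.8. Their rank was 93.1, 98.7 and 80.2 in scramble, 97.8, 97.2 and 99.0 in CPT1a knockout, 98.7, 97.1 and 90.0 with acetate and 97.8, 88.9 and 98.5 in KAT2a knockout. All 12 of these values were high and the groups overlapped. Hist2h3c1 followed with a mean of 86.9 and a range of 60.8 to 96.4.

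The weakest called genes were the testis pair and 3 H4 genes. Hist1h2aa and Hist1h2ba encode an H2A and an H2B that replace other histones in developing sperm. They shared one narrow peak of 210 to 425 bp in each library, within chr13:23933656-23934086 and over the body of Hist1h2ba. Its rank was 7.98, 11.1 and 1.35 in scramble, 3.41, 4.30 and 0.0464 in CPT1a knockout, 0.501, 0.682 and 5.21 with acetate and 7.87, 11.5 and 11.1 in KAT2a knockout. Scramble overlapped each other group, and the 3 KAT2a knockout values lay above the 3 CPT1a knockout and the 3 acetate values. Hist1h4c, Hist1h4f and Hist1h4b had mean ranks of 10.6, 18.5 and 19.4. In scramble the median rank was 65.4 ± 8.89 for the H4 genes (SD, n = 3), 71.3 ± 10.5 for the H1 genes called throughout, 77.0 ± 12.8 for H2B, 80.3 ± 9.44 for H2A and 82.1 ± 9.69 for H3, and neighbours in this order differed by less than their spread. In CPT1a knockout it was 26.6 ± 3.70 for H4, 34.4 ± 16.6 for H1, 54.5 ± 4.99 for H2B, 55.7 ± 5.41 for H2A and 59.3 ± 6.68 for H3, in the same order. With acetate the order was different, with 37.8 ± 9.30 for H2B, 38.8 ± 8.63 for H2A, 40.6 ± 9.33 for H4, 43.1 ± 6.61 for H1 and 56.8 ± 14.1 for H3, and in KAT2a knockout it was 50.6 ± 6.72 for H4, 57.8 ± 11.7 for H1, 58.2 ± 6.51 for H2B, 62.3 ± 5.01 for H2A and 66.9 ± 2.94 for H3.

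**Figure D1:**
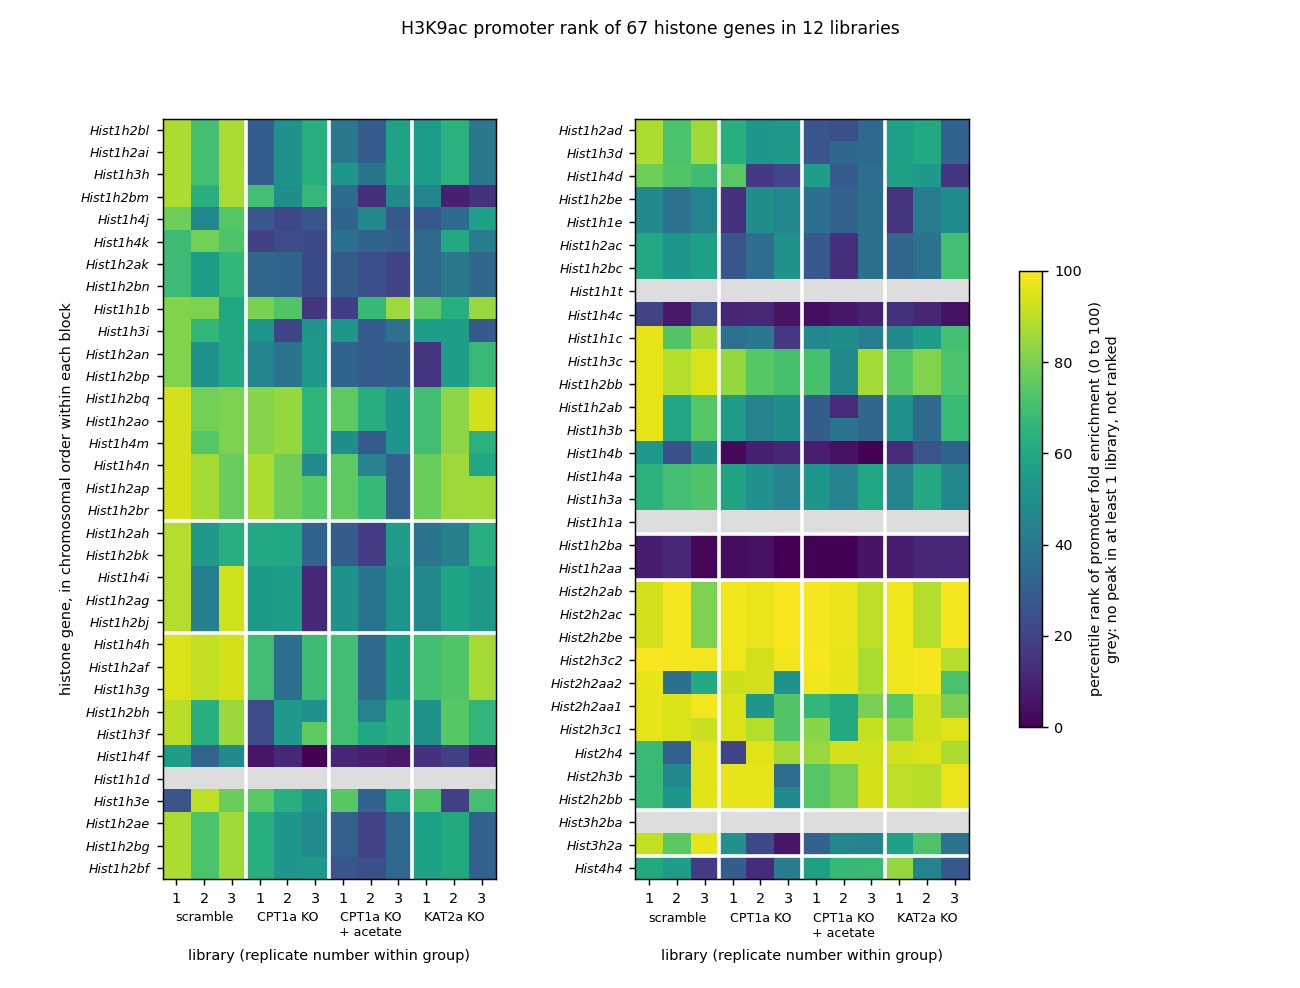
Percentile rank of the strongest promoter peak for the 67 histone genes (rows, in chromosomal order within each block, white lines between blocks) in the 12 libraries (columns, by group), from 0 (dark) to 100 (yellow). Grey rows are the 4 genes without a peak in all 12 libraries. The Hist2 rows are mostly yellow in all groups, Hist1h4f, Hist1h4b, Hist1h4c and the testis pair are dark, and most other Hist1 rows are brighter in the scramble columns.

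Because the genes are short and close together, many of them were read through the same peak. In all 12 libraries 35 of the genes shared their strongest peak with the same partner or partners, in 13 pairs and 3 groups of 3, and most pairs joined an H2A and an H2B gene, such as Hist1h2ak with Hist1h2bn. The 3 groups of 3 were Hist1h4h, Hist1h2af and Hist1h3g, then Hist1h4i, Hist1h2ag and Hist1h2bj, and the Hist2 trio above. The peak at Hist1h4h, Hist1h2af and Hist1h3g was the widest by its median width, with 9744, 8219 and 9400 bp in scramble and 7160 to 7937 bp in the other 9 libraries. The narrowest of the genes called throughout were the testis pair and Hist1h3a, an H3 gene that shares its strongest peak with Hist1h4a, at 616 to 1284 bp. Where peaks ran together in only some libraries, larger groups formed. Hist1h2ad, Hist1h2ae, Hist1h2bf, Hist1h2bg and Hist1h3d lay in one peak in all 3 scramble and all 3 KAT2a knockout libraries, for example of 6820 bp in scramble replicate 3, but not in CPT1a knockout replicate 3 or acetate replicate 2. In scramble replicate 1, Hist1h1c, Hist1h3c, Hist1h2bb, Hist1h2ab and Hist1h3b lay under a single peak of 17938 bp at chr13:23737437-23755374. The annotated starts of Hist1h2be lie beside Hist1h1e, so that both had the same ranks. Genes that share a peak are not separate observations, which holds for each count below.

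Near-identical copies add a second limit. Of the 32-base words within 1 kb of the start, the share that occurs again in the genome had a median of 24.5% for the histone genes, against 0.660% for 536 other called promoters. It was above 50% for 10 genes, among them Hist2h3c2, which had the highest mean rank. It was 100% for 4, Hist1h2ao, Hist1h2ap, Hist1h2bq and Hist1h2br. How reads that fit several places were treated is not given in the sources used here, and peaks at these copies cannot be told apart.

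Histone promoters stood highest within the scramble libraries. Their median rank was 87.8, 70.2 and 80.2 there, 58.2, 52.4 and 50.9 in CPT1a knockout, 51.3, 34.7 and 51.8 with acetate and 55.9, 60.7 and 63.1 in KAT2a knockout. The scramble values lay above all others, and the KAT2a knockout values lay above those with acetate. As group means this was 79.4 ± 8.79 for scramble, 59.9 ± 3.69 for KAT2a knockout, 53.9 ± 3.86 for CPT1a knockout and 45.9 ± 9.73 when acetate was added (SD, n = 3), while by construction all genes together had a median near 50. For 9 histone variant genes, which are also expressed outside S phase, it was 82.3 ± 3.02 in scramble, 67.6 ± 15.8 in KAT2a knockout, 82.4 ± 10.4 in CPT1a knockout and 80.1 ± 7.17 with acetate. The gap was seen at Hist1 and not at Hist2. The median rank of the Hist1 genes was 78.3 ± 8.86 in scramble against 54.3 ± 3.83 in KAT2a knockout, 51.7 ± 2.97 in CPT1a knockout and 35.0 ± 3.11 with acetate. That of the Hist2 genes was 93.7 ± 0.723 against 94.1 ± 2.68, 90.6 ± 9.52 and 92.1 ± 2.56 in the same order. Hist4h4 alone had 44.5 ± 23.7 in scramble, 52.3 ± 29.0 in KAT2a knockout, 28.3 ± 14.7 in CPT1a knockout and 63.9 ± 6.18 with acetate. Its 3 acetate values lay above its 3 CPT1a knockout values (adjusted p = 0.477, limma), and scramble overlapped each other group. Whether the clusters differ in their change was not tested.

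The median fold enrichment of the histone genes, unlike their median rank, was not lower in CPT1a or KAT2a knockout than in scramble. This median fold enrichment was 28.1, 24.0 and 27.2 in scramble and 29.4, 32.1 and 18.7 in CPT1a knockout, and these overlap. It was 31.0, 34.1 and 29.8 in KAT2a knockout, above scramble, and 26.5, 19.5 and 25.4 with acetate, overlapping scramble. Single genes could be lower on both scales, as Hist3h2a was in CPT1a knockout replicate 3, with a fold enrichment of 8.28 against 25.3 to 37.2 in scramble. Over all 10777 genes the median was 18.7, 19.4 and 18.8 in scramble, against 27.2, 31.4 and 18.5 in CPT1a knockout, 26.1, 22.9 and 25.0 with acetate and 29.4, 30.9 and 26.2 in KAT2a knockout. Scramble was thus the group in which histone promoters stood out from a low general level. Fold enrichment is not scaled between libraries, so only the order within a library was tested.

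Histone peaks were also much wider in scramble, in particular in replicates 1 and 3. The median width of the widest promoter peak at the 63 genes was 9308, 3275 and 5341 bp in scramble, 3764, 3511 and 1502 bp in CPT1a knockout, 2832, 1682 and 3208 bp with acetate and 2897, 3714 and 2189 bp in KAT2a knockout. Scramble replicates 1 and 3 lay above every other library, and replicate 2 lay within the range of the rest. Over all 10777 genes the group means ran only from 1881 ± 359 bp (CPT1a knockout) to 2449 ± 410 bp (scramble). Peaks wider than 5000 bp lay at 53, 17 and 36 of the 67 genes in the 3 scramble libraries and at 3 to 12 in the other 9, against 12.4%, 3.42% and 5.60% and 0.789% to 4.12% of all 10777 promoters. A wide peak carries one summit value for all genes under it. The strongest peak had its summit within 1 kb of the start for 45.5%, 76.6% and 63.1% of the called histone genes in scramble and for 76.9% to 90.6% in the other groups, against 89.5% to 97.9% of all promoters. The part of this merging in the rank result was not tested apart from the restricted set given below.

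**Figure D2:**
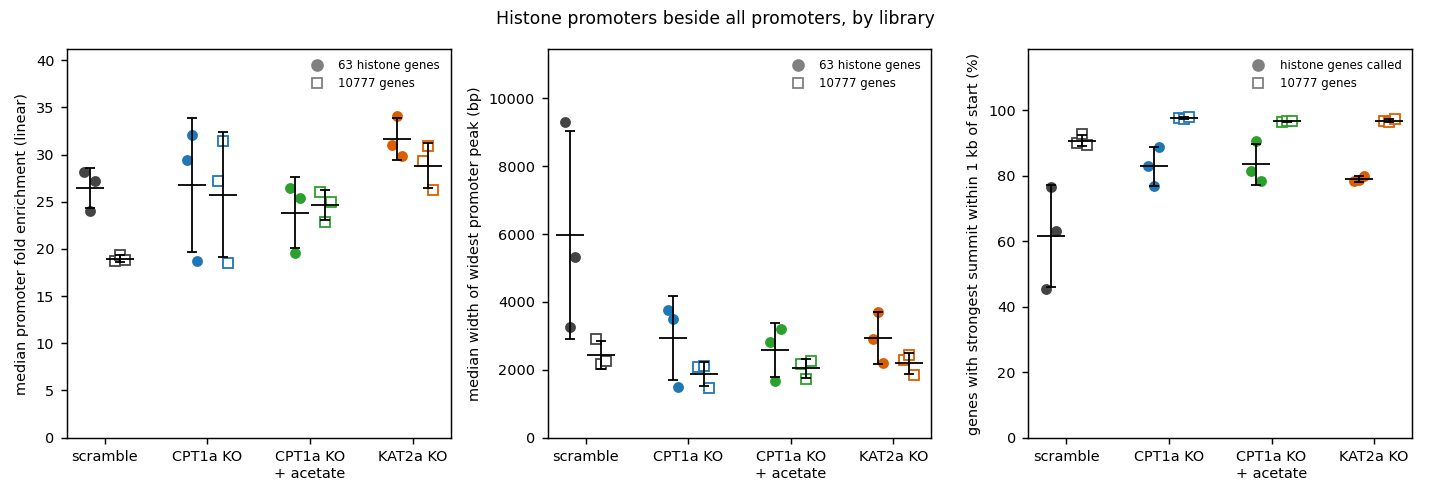
Median promoter fold enrichment (left), median width of the widest promoter peak in bp (middle) and share of genes whose strongest summit lay within 1 kb of the start (right), one point per library, with mean ± SD of 3 libraries in black. Filled circles are histone genes and open squares the 10777 genes called in all libraries. In scramble the histone genes lie above all genes in enrichment and width and their summits are less often at the start, and in the other groups the left panel shows both at like levels.

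Peaks covered more of 5 of the 7 blocks in scramble. In the block of 29 Hist1 genes they covered 40.4%, 29.6% and 36.8% of bases in scramble and 17.6% to 25.6% in the other 9 libraries. In the Hist2 block they covered 69.2%, 49.6% and 62.4% against 32.3% to 43.3%, although no Hist2 gene passed the rank test in any comparison. The scramble values lay above the rest in both. The Hist3 block, with means of 40.0% to 42.7%, and the testis pair, with 21.3% to 26.9%, showed no such gap. Hist4h4 had 61.3% ± 2.70 in scramble and 41.7% to 45.3% as means of the other groups. The whole genome was covered to 1.50% ± 0.230 in scramble and 1.01% ± 0.232, 1.12% ± 0.150 and 1.21% ± 0.156 in CPT1a knockout, acetate and KAT2a knockout, so peaks were more extensive in scramble in general.

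**Figure D3:**
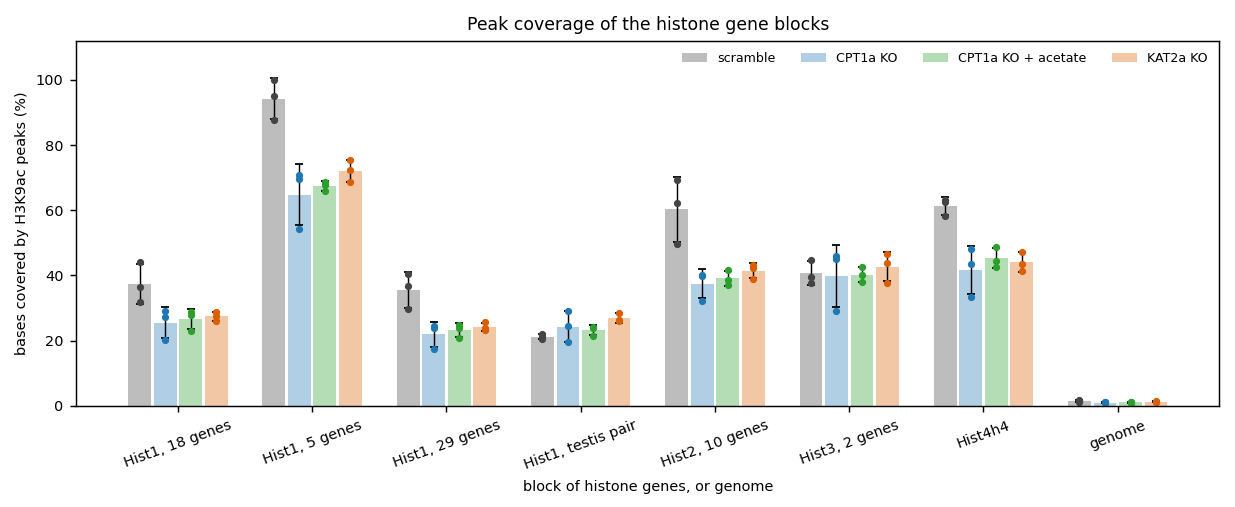
Percent of bases covered by H3K9ac peaks in each block of histone genes and in the genome, as means of 3 libraries (bars) with SD and single libraries (points). Scramble bars (grey) are the tallest in the 3 larger Hist1 blocks, the Hist2 block and at Hist4h4, and are not in the Hist3 block or at the testis pair.

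CPT1a knockout was compared with scramble to ask whether loss of fatty acid oxidation goes with a change of H3K9ac. On the rank scale 12 of the 63 histone genes (limma on normal scores of the ranks, Benjamini-Hochberg adjustment over 10777 genes, threshold 0.05) were lower and none was higher, against backgrounds of 5.46% lower and 5.10% higher over all genes. The 12 genes lay in 9 sets that did not share a peak in all libraries. Joining genes that shared a peak in at least 1 library left 8 sets. The median difference was -18.0 percentile points against 0.217 for all genes, 56 of 63 had a lower mean, and the ranks of 30 did not overlap, all lower, against a background of 15.3%. By product 5 of the 12 were H4 genes, 3 H2A, 2 H3, 1 H2B and 1 H1. The 3 comparisons with scramble share those libraries and are not independent of each other.

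Hist3h2a, an H2A gene, fell most on the normal score scale, whose unit is 1 SD of all ranked genes. Its rank was 90.9, 74.7 and 96.3 in scramble and 50.4, 22.2 and 6.24 in CPT1a knockout. The groups did not overlap, and the difference was -2.02 in score (SE 0.383, adjusted p = 0.00521, limma). Its peak was 2863 ± 339 bp wide in scramble and 2539 ± 744 bp in CPT1a knockout (SD, n = 3), a difference within the spread. The summit lay a median of 1063 bp from the start, and within 1 kb of it in only 3 of 12 libraries. Hist1h4k, an H4 gene, had 68.4, 78.9 and 72.4 in scramble and 19.2, 22.8 and 22.5 in CPT1a knockout, a difference of -1.42 (SE 0.241, adjusted p = 0.00297, limma). This was the smallest adjusted p of the histone genes in this comparison. Hist1h1c, which encodes the linker histone H1.2, had 96.3, 72.9 and 86.8 against 37.3, 40.1 and 16.6, a difference of -1.69 (SE 0.324, adjusted p = 0.00579, limma). In scramble replicate 1 its value was that of the 17938 bp peak.

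The other members of this set were alike in direction. Hist1h4f fell from 55.8, 32.7 and 47.8 to 6.03, 11.5 and 0.673 (adjusted p = 0.00401, limma). Hist1h4b fell from 53.5, 24.9 and 49.4 to 2.28, 8.73 and 10.6 (adjusted p = 0.0142, limma). Both are H4 genes and both ended near the bottom of the list. Hist1h4h, Hist1h2af and Hist1h3g, under one peak, fell from 94.6, 91.0 and 93.5 to 69.2, 36.5 and 69.1 (adjusted p = 0.0280, limma). Hist1h2ak with Hist1h2bn, Hist1h4j and Hist1h3h made up the rest, with adjusted p-values of 0.0191 to 0.0471. No Hist2 gene was among the 12. Without scramble replicate 1, or without scramble replicate 3, 4 genes passed (all genes lower, 2.35% and 2.40%), and 7 passed without CPT1a knockout replicate 2 (4.16%). Ranking by -log10 p gave 31 lower (17.4% of all genes), and removing a GC trend gave 5 (3.43%). Among the 22 histone genes whose strongest summit lay within 1 kb of the start in all 12 libraries, 3 were lower and none higher, against 5.01% lower of the 9050 genes of that kind, and their median rank was 71.1 ± 3.65 in scramble and 53.0 ± 2.90 in CPT1a knockout.

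**Figure D4:**
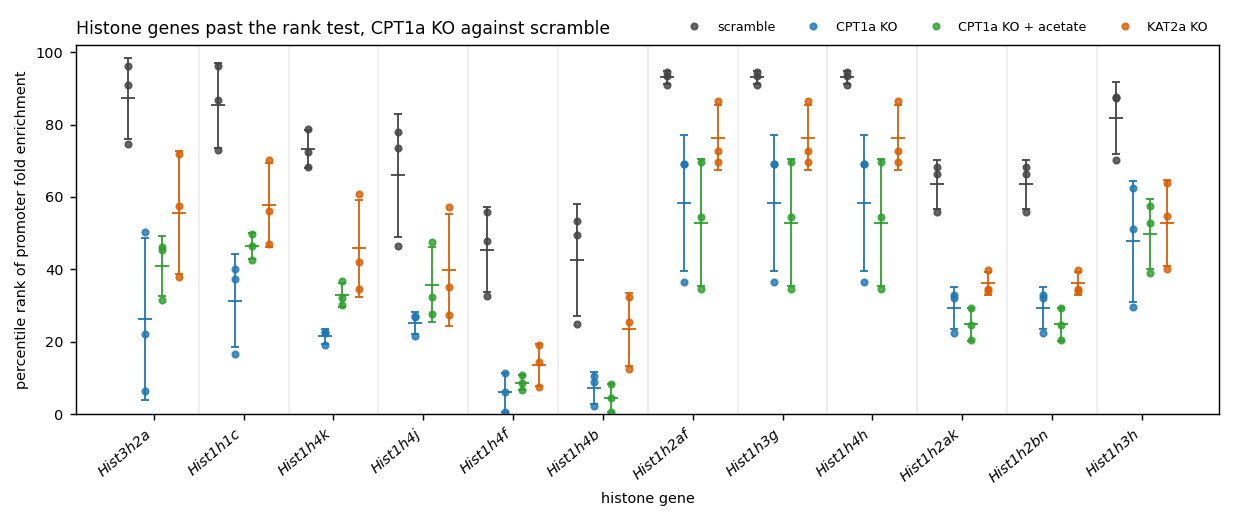
Percentile rank of promoter fold enrichment for the 12 histone genes past the rank test between CPT1a knockout and scramble, with 1 point per library and mean ± SD of 3 libraries for each of the 4 groups. For every gene shown the scramble points lie above the CPT1a knockout points, and genes under 1 peak (Hist1h2af, Hist1h3g and Hist1h4h; Hist1h2ak and Hist1h2bn) have the same values.

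By width, 14 histone genes were narrower in CPT1a knockout and none was wider. The background was 26.5% narrower and 1.12% wider, so the share of histone genes, 22.2%, was near it. The median fold of width was 0.503 for the histone genes against 0.762 for all genes. Hist1h3i, an H3 gene, changed most, from 12731, 3453 and 12088 bp in scramble to 1326, 1408 and 979 bp (0.151-fold, adjusted p = 0.00461, limma). Scramble replicate 2 stood closer to the knockout libraries than to the other scramble libraries. The trio at the strongest Hist2 peak narrowed from 10614, 5023 and 5377 bp to 4435, 4311 and 1905 bp (0.503-fold, adjusted p = 0.0378, limma), although it did not pass the rank test (adjusted p = 0.411, limma). Without scramble replicate 1, 2 or 3, 5, 23 and 9 genes passed (all genes narrower, 13.1%, 29.3% and 20.5%). Without CPT1a knockout replicate 3, which had the shortest list, 5 passed (12.7%).

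KAT2a knockout was compared with scramble in the same way. Only Hist1h2bm, an H2B gene, passed the rank test among the 63, lower, against backgrounds of 2.25% lower and 1.59% higher. Its rank was 87.8, 63.1 and 87.4 in scramble and 45.3, 8.92 and 14.8 in KAT2a knockout (-1.72 in score, SE 0.360, adjusted p = 0.0187, limma). The groups did not overlap. In scramble replicates 1 and 3 its value was that of a peak of 8718 and 8245 bp, also read for Hist1h2bl, Hist1h2ai and Hist1h3h. The summit of its strongest peak lay within 1 kb of the start in 9 of 12 libraries. No histone gene passed without scramble replicate 1 or 3 (all genes lower, 0.399% and 0.379%), or without KAT2a knockout replicate 2 or 3 (1.06% and 0.807%). The ranks of 25 histone genes did not overlap, all lower, against a background of 15.0%, and the median difference was -17.7 percentile points against 0.104 for all genes. At an unadjusted p under 0.05, 25 of the 63 passed, against 2331 of all 10777 genes. Ranking the same peaks by -log10 p gave 30 histone genes lower, against 13.1% of all genes. By width 3 genes were narrower, Hist1h3i, Hist1h2bm and Hist2h4, and none was wider, against backgrounds of 3.17% and 0.761%. None passed without scramble replicate 1 or 3 (all genes narrower, 0.306% and 0.0831%), and 11 without scramble replicate 2 (6.56%). None passed without any single KAT2a knockout library.

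Acetate was given to CPT1a knockout spheroids as a source of acetyl groups that does not need fatty acid oxidation. Against CPT1a knockout without acetate, none of the 63 histone genes passed the rank test (limma) in either direction, as was the case for all genes (0% lower and 0% higher), and 8 had an unadjusted p under 0.05, against 1000 of all 10777 genes. The smallest adjusted p was 0.451. Ranks of 11 histone genes lay lower without overlap, against a background of 8.69%, and those of 4 lay higher, against 589 of all 10777 genes. None passed by width either (0% narrower and 0% wider in the background, none of the 63 at an unadjusted p under 0.05). The median rank was 53.9 ± 3.86 without and 45.9 ± 9.73 with acetate, within the spread between libraries. For the Hist1 genes it was 51.7 ± 2.97 without and 35.0 ± 3.11 with acetate, a gap beyond the spread. For the Hist2 genes it was 90.6 ± 9.52 and 92.1 ± 2.56. No test was made on these medians.

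Against scramble, CPT1a knockout with acetate gave the largest count. By rank 21 of the 63 histone genes were lower and none was higher, against backgrounds of 4.05% lower and 1.87% higher. They lay in 15 sets that did not share a peak in all libraries. Joining genes that shared a peak in at least 1 library left 9 sets. Of the 21 genes, 20 were Hist1 genes and the other was Hist3h2a. The ranks of 41 genes did not overlap, all lower, against a background of 17.0%, and the median difference was -28.9 percentile points against 0.148 for all genes. On the normal score scale Hist1h4b had the largest difference, from 53.5, 24.9 and 49.4 to 8.24, 4.49 and 0.691 (-1.65 in score, SE 0.310, adjusted p = 0.00868, limma). Hist1h2ab followed, from 96.3, 58.9 and 73.6 to 29.4, 11.9 and 33.0 (adjusted p = 0.0201, limma). The head-to-head pair Hist1h2ae and Hist1h2bg fell from 87.8, 71.7 and 85.7 to 30.8, 20.5 and 34.2 (adjusted p = 0.00915, limma), and the neighbouring pair Hist1h2bf and Hist1h2ad, with the same scramble values, to 26.6, 24.5 and 34.2 (adjusted p = 0.00856, limma). None of these groups overlapped. Without scramble replicate 1 or 3, 5 genes passed (all genes lower, 1.03% and 0.997%). Without acetate replicate 2, 1 or 3, 4, 11 and 8 passed (1.06%, 1.58% and 1.62%). In the 22 genes with their summit at the start, 2 were lower, against 3.58% of the 9050 genes of that kind. Ranking by -log10 p gave 41 lower (13.9% of all genes), and removing a GC trend gave 8 (2.24%). By width 8 genes were narrower and none wider, against backgrounds of 7.05% and 0.594%. None passed without scramble replicate 3 (all genes narrower, 0.0646%) or any single acetate library (0.0742% to 0.0927%). There were 2 without scramble replicate 1 (0.436%) and 17 without scramble replicate 2 (12.5%).

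Replication-independent histone variants and genes of the histone production machinery were examined beside the clusters. Of 11 variant genes, 9 had a peak in all 12 libraries, and H1fx and H2afy2 had none in any. H2afv, which encodes an H2A.Z, was lower in rank in CPT1a knockout (81.7 to 38.2, adjusted p = 0.0124, limma) and with acetate (40.3, adjusted p = 0.0254, limma) against scramble, and no other variant gene passed the rank test in any of the 4 comparisons. H3f3a and H3f3b, both of which encode H3.3, did not pass it, with mean ranks of 70.9 and 72.4 over all libraries. All 20 machinery genes had a peak in every library, and their median rank was 59.2 ± 4.83 in scramble, 64.8 ± 6.21 in KAT2a knockout, 62.7 ± 3.75 in CPT1a knockout and 60.0 ± 6.35 with acetate. Npat, which activates histone transcription downstream of cyclin E and CDK2, had a mean rank of 80.3, and Slbp, which binds the histone mRNA stem-loop, 65.3, and neither passed the rank test in any comparison. Ccne1, which encodes cyclin E1, was higher in CPT1a knockout (4.47 to 37.4, adjusted p = 0.00493, limma) and with acetate (25.1, adjusted p = 0.0254, limma) than in scramble, and Asf1a, a histone chaperone, was lower with acetate (91.1 to 59.2, adjusted p = 0.0420, limma). No other machinery gene passed the rank test. By width, 7 machinery genes (Npat, Pou2f1, Cdk2, Cpsf2, Asf1b, Chaf1a and Chaf1b) and the variant gene H2afy were narrower in CPT1a knockout than in scramble (adjusted p of 0.00910 to 0.0358, limma), against the 26.5% of all genes given above, and no gene of either list passed by width in the other 3 comparisons.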

How the data were processed

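H3K9ac peak lists of 12 libraries were used, each called by the authors on 1 library. Per the study's methods reads were aligned with BWA to mm10 (GRCm38) and duplicates were removed, whereas the submitters' processing notes name Bowtie2, SAMtools, deepTools and MACS2 and the builds mm10 and dm6. The caller's options and its use of inputs are not given in the sources used here. The deposited fold enrichment is a ratio of pileup to local background at the summit, and the deposited -log10 p-values and -log10 q-values are those of the peak in its own list, with a smallest -log10 q of 2.00. None is scaled between libraries. The lists give no read totals, so depth is unknown, and they held 16212 to 34370 peaks. The labels and the methods give different catalogue numbers for the antibody. The Drosophila chromatin added as a reference was not used, so total H3K9ac was not measured.

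Only peaks of chromosomes 1 to 19 and X entered, none of which ended beyond its chromosome. A gene's strongest and widest peaks overlapping the 1 kb around any annotated start were taken. Fold enrichments were ranked within each library over the 10777 genes called in all 12, turned into normal scores and tested with limma 3.58.1 (R 4.3.3, trended variance, 4 group means in one fit, 12 libraries, Benjamini-Hochberg adjustment over all genes, threshold 0.05), as were log2 widths. Both tests were run on simulated data first. Alternatives were 500 bp and 2 kb windows, -log10 q of at least 5, lists of equal length, other ranking or scaling, a replicate block, merging of peaks within 500 bp, removal of a GC trend (50 bins) and leaving out each library. Same-numbered libraries of different groups did not deviate together (correlations of -0.0630 to 0.0595). Words of 32 bases were counted in the genome on both strands. The members and gene lists were chosen with earlier results of these data known. Named are the genes not called throughout, the 5 of highest and the 5 of lowest mean rank, those past the rank test (the 5 of the largest difference where there were more), the 3 of widest and of narrowest peaks, peaks shared by 3 or more, and the testis genes.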

Additional observations from a re-analysis of the deposited data

How the results depend on the processing

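Values are for CPT1a knockout, KAT2a knockout and acetate, each against scramble, unless named. Histone genes past the rank test numbered 12, 1 and 21. They numbered 31, 30 and 41 with -log10 p in place of fold enrichment (all genes lower, 17.4%, 13.1% and 13.9%), and 5, 1 and 8 with a GC trend removed (3.43%, 1.71% and 2.24%). They numbered 3, 0 and 2 among the 22 genes with their summit at the start (5.01%, 2.00% and 3.58%), and 14, 2 and 18 with a 2 kb window (5.44%, 2.22% and 4.03%). With overlapping peaks of the 12 lists merged and regions tested in place of genes, 8, 0 and 12 regions passed. The share over all regions is not given here. Counting ranks that do not overlap gave 30, 25 and 41, all lower (all genes lower, 15.3%, 15.0% and 17.0%). For acetate against CPT1a knockout it gave 15, of which 11 were lower (8.69%) and 4 higher (589 of 10777 genes). Past the width test were 14, 3 and 8, against 58, 49 and 53 with peaks within 500 bp merged (all genes narrower, 73.1%, 44.2% and 49.8%), and 8, 16 and 10 after centring on each library's median (7.92%, 6.83% and 5.25%). Leaving out 1 library in turn gave 4 to 18, 0 to 2 and 4 to 22 by rank (all genes lower, 2.35% to 5.55%, 0.379% to 2.87% and 0.997% to 4.57%). By width it gave 5 to 23, 0 to 11 and 0 to 17 (all genes narrower, 12.7% to 29.3%, 0.0371% to 8.35% and 0.0646% to 15.1%). Acetate against CPT1a knockout gave 0 in each of these rank and width tests, apart from the count of ranks that do not overlap. The median rank moved to 43.5 and 49.2 in CPT1a and KAT2a knockout with -log10 p, and to 62.2 and 65.1 with the GC trend removed. The cause was not tested. Of 1135 values recomputed for single genes with a call, 842 kept direction and call, 293 lost the call and 0 changed direction. Since these genes were chosen by their call on the same libraries, a change of direction was unlikely from the outset.

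Replicate numbers did not pair the libraries. With a replicate block, 11, 1 and 18 genes passed by rank (all genes lower, 4.85%, 1.74% and 3.14%) and 15, 0 and 5 by width (all genes narrower, 25.5%, 0.241% and 3.77%).

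Depth is unknown, shared peaks and near-identical copies limit single genes, and most rank calls against scramble were lost without scramble replicate 1 or without scramble replicate 3. Each of these runs left 4, 0 and 5 histone genes. The share of all genes that were lower fell too, to 2.35%, 0.399% and 1.03% without replicate 1. It was 2.40%, 0.379% and 0.997% without replicate 3.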
